A study of Mus musculus and Sus scrofa with 30 samples.

Results

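The 7 genes described here act in the growth of lipid droplets: Cidea, Cidec, Fitm1, Fitm2, Bscl2, Hilpda and Rab18. They were chosen by name and role, with earlier results of these data known, and were read as the rows whose gene symbol equals a member, ignoring case. The mouse table held 6 of them among 24843 genes (Fitm1 was not analysed there), and the pig table held all 7 among 34307 genes. RNA-seq was done in 2 cell systems, each with 5 groups of 3 libraries, 30 libraries in all. The first system was the mouse fibroblast line 3T3-L1, which can be induced to become fat cells. Its induction medium held 10% serum, 75 nM dexamethasone, the phosphodiesterase inhibitor IBMX at 37.5 µM and insulin at 0.75 µg/mL. The other system was DFAT, dedifferentiated fat cells that came from pig subcutaneous fat. Their medium held 2% serum, GlutaMAX at 2 mM, biotin at 20 µM, pantothenate at 10 µM, IBMX at 12.5 µM and dexamethasone at 0.5 µM, with no insulin named. In both systems the groups received DMSO vehicle, dicoumarol (a coumarin anticoagulant), magnolol (a lignan of magnolia bark), dicoumarol together with magnolol (the combination), or rosiglitazone (an agonist of the adipogenic receptor PPARγ) while they differentiated, and were sampled on day 5. Compound doses do not appear in the labels used here, so no group is a matched dose of another. The sources used here do not say whether the 3 replicates were separate cultures, so the p-values measure only the spread between these libraries.

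A lipid droplet is a store of neutral fat enclosed by a single layer of phospholipid. It forms when triglyceride collects between the leaflets of the endoplasmic reticulum membrane and buds off. The FIT proteins (Fitm1 in muscle, Fitm2 more widely) act at the budding step, and seipin, the product of Bscl2, forms a ring at the site where droplet and reticulum join. CIDE proteins gather where droplets touch and move lipid from the smaller to the larger droplet. Cidec (also called FSP27) is the CIDE protein of white fat, where it is needed for the single large droplet, and Cidea is best known from brown fat. Hilpda is a small hypoxia-inducible protein that inhibits the lipase ATGL, and Rab18 is a small GTPase found on droplets and on the reticulum.

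Cidec and Fitm2 were the mouse members with the largest differences from vehicle. The bases just upstream of their annotated starts are shown so that their letters can be compared, beside those of Hilpda, which differed much less. The sequences are 250 bases long, come from RefSeq on build GRCm38.p6 and read in the direction of the gene. Capitals mark the GC box letters GGGCGG.
Cidec: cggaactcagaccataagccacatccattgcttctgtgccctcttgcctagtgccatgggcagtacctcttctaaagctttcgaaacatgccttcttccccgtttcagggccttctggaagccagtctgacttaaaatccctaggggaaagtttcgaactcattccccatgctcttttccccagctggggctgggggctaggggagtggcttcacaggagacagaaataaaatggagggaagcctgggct
Fitm2: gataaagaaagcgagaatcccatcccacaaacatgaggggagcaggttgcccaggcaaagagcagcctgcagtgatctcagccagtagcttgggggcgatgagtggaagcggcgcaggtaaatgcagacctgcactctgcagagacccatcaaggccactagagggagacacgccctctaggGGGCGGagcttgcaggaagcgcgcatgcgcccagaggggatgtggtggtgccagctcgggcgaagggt
Hilpda: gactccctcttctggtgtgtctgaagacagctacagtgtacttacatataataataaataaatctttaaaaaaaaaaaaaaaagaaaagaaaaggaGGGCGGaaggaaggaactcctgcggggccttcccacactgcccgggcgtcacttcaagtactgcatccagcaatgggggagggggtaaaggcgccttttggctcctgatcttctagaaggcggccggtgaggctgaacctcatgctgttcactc
The Cidec window is chr6:113435761-113436010 on the minus strand, the Fitm2 window is chr2:163472630-163472879 on the minus strand, and the Hilpda window is chr6:29272238-29272487 on the plus strand. RefSeq gives Cidec and Hilpda 2 starts each, and the window upstream of the outer start was printed. Both strands were searched for AGGTCA (a nuclear receptor element), for 2 copies of it 1 base apart (called DR1, the arrangement bound by PPARγ with RXR), for the hypoxia element core ACGTG, and for the CCAAT box, the TATA box letters TATAAA and GGGCGG. The Cidec window held none of these. The Fitm2 window held 1 GGGCGG, which began 68 bases before the start, and the Hilpda window 1, at 154 bases. Of 32851 mouse promoter windows of the same length, 32.7% held GGGCGG, 14.0% AGGTCA, 16.6% ACGTG, 33.8% CCAAT, 12.4% TATAAA and 0.0335% DR1. The other Hilpda start had 1 ACGTG within its 250 bases, 43 bases upstream. GC content was 52.8% in the Cidec window, 60.8% in the Fitm2 window and 48.4% in the Hilpda window, against a median of 52.4%. These matches describe letters only, and binding was not measured.

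All values below are normalized counts, that is, gene counts divided by a size factor of the library. Depth, estimated from the smallest steps between values, lay between 22.8 and 30.7 M reads in 3T3-L1 libraries and between 44.8 and 70.5 M in DFAT libraries. A gene was tested where its mean over a table's 15 libraries reached 10, which left 15723 genes in 3T3-L1 and 14819 in DFAT, and a gene was called at an adjusted p under 0.05. Of the members, 5 passed this filter in 3T3-L1 (not Cidea) and 6 in DFAT (not FITM1). The 2 tables were normalized separately, so values of the 2 systems stand side by side without a test. The summed level of 9 adipocyte markers was 44058 to 61605 in the 3T3-L1 vehicle libraries and 295441 to 526036 with rosiglitazone. In DFAT the sum was 18223 to 21135 with vehicle and 73633 to 80419 with rosiglitazone. Defining endothelial markers (4 genes) stayed under a mean of 10 in 3T3-L1, and no epithelial marker reached it in either system. In DFAT 1 endothelial marker reached it (sum 204 to 239 with vehicle). Of 6 macrophage and immune markers, 4 reached it in 3T3-L1 (sum 405 to 430 with vehicle) and 2 in DFAT (830 to 1017). Ptprc and Adgre1 were not listed in 3T3-L1. In DFAT ADGRE1 and LYZ2 were not listed, and PTPRC and CSF1R were under a mean of 10. In bulk RNA, fewer fat cells and less of a transcript per fat cell cannot be told apart.

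Cidec, which enlarges droplets by lipid transfer, showed the largest differences of the members. In 3T3-L1 its normalized counts in replicates 1, 2 and 3 were 815, 186 and 201 with vehicle. They were 3224, 718 and 1314 with dicoumarol. They were 6883, 3597 and 4894 with magnolol. Magnolol libraries were thus all above the highest vehicle library, while dicoumarol overlapped vehicle. With the combination the counts were 10753, 4614 and 8449. With rosiglitazone they were 40463, 26297 and 37315. The order of the means was vehicle, dicoumarol, magnolol, combination and rosiglitazone. Neighbours overlapped between vehicle and dicoumarol and between magnolol and the combination. Against vehicle, Cidec rose by a log2 fold change of 3.98 ± 0.53 (SE) with magnolol (adjusted p = 0.00254), 4.58 ± 0.53 with the combination (adjusted p = 0.000316) and 6.77 ± 0.53 with rosiglitazone (adjusted p = 3.1e-07). On the log2(value + 1) scale used for all fold changes these correspond to 15.8-fold, 23.9-fold and 109-fold. In each of these 3 comparisons it ranked 1 of 15723 tested genes by size of the rise, a rise already known when the members were chosen.

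Replicate 1 was the highest Cidec library in 5 of 5 groups of 3T3-L1, and the adipocyte marker sum was also highest in replicate 1 in 5 of 5 groups. The part of the marker sum in the Cidec values was not tested. Ratios to the vehicle library of the same number were 8.45, 19.4 and 24.3 with magnolol and 49.6, 142 and 186 with rosiglitazone. For dicoumarol the ratios were 3.96, 3.87 and 6.53. The dicoumarol difference of 2.21 ± 0.53 was not called (adjusted p = 1.00). With the replicate number as a block it was called (SE 0.27, adjusted p = 0.000802). The block was used because same-numbered 3T3-L1 libraries deviated together. Cidec was higher with magnolol than with dicoumarol by 1.77 and higher with the combination than with dicoumarol by 2.37. Neither was called without the block (adjusted p = 0.992 and 0.128), and both were called with it (adjusted p = 0.00497 and 0.000114). The combination differed from magnolol by 0.60 ± 0.53 and was called in neither fit (adjusted p = 1.00 and 0.682). Cidec was higher with rosiglitazone than with the combination by 4.56-fold (SE 0.53 on the log2 scale, adjusted p = 0.0118). Without combination replicate 2 that call was lost (adjusted p = 0.0544), as it was without rosiglitazone replicate 1 (adjusted p = 0.0540). With the block and no library left out, this difference was called (adjusted p = 3.2e-05).

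In DFAT cells CIDEC followed the same order of groups over a smaller range. Its normalized counts were 386, 290 and 302 with vehicle and 741, 522 and 556 with dicoumarol. Magnolol gave 731, 834 and 791, and the combination 1700, 1240 and 1259. Rosiglitazone gave 3407, 2838 and 3113. No treated library fell within the vehicle range, and among neighbours in the order only dicoumarol and magnolol overlapped. CIDEC rose against vehicle by 0.89 ± 0.14 with dicoumarol (adjusted p = 0.00178) and by 1.28 ± 0.14 with magnolol (adjusted p = 1.9e-05). The combination raised it by 2.10 ± 0.14 (adjusted p = 2.0e-08) and rosiglitazone by 3.26 ± 0.14 (adjusted p = 2.9e-11). By size of the rise CIDEC ranked 98, 79, 46 and 28 of 14819 tested genes in the same order of treatments. The combination exceeded dicoumarol by 1.21 (adjusted p = 4.6e-05) and magnolol by 0.82 (adjusted p = 0.00825). The second of these calls was lost without magnolol replicate 1 (adjusted p = 0.0616), without combination replicate 1 (adjusted p = 0.0602), without a filter on low values (adjusted p = 0.0539) and without a variance trend (adjusted p = 0.0569). CIDEC was higher with rosiglitazone than with the combination by 1.17 ± 0.14 (adjusted p = 1.8e-05). The CIDEC interaction, the combination minus the 2 single compounds plus vehicle, was -0.07 ± 0.20 and was not called. In 3T3-L1 the Cidec interaction was -1.61 ± 0.76 (unadjusted p = 0.0487, adjusted p = 1.00).

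**Figure D1:**
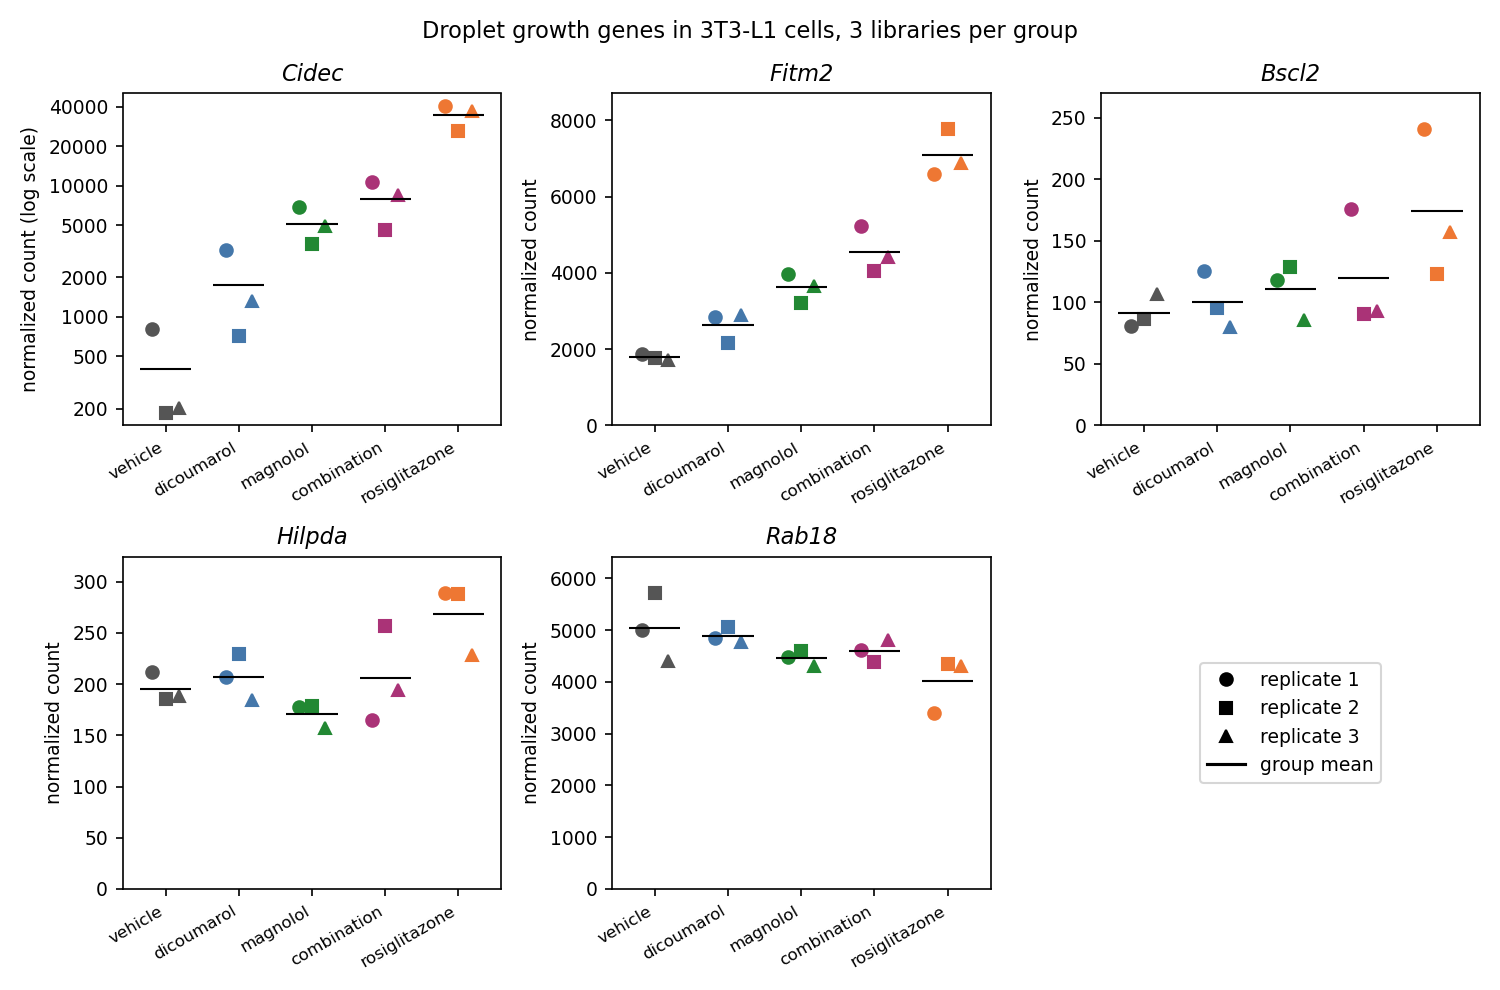
Normalized counts of 5 members in each 3T3-L1 library by group, with the replicate number as marker shape and the group mean as a line; the Cidec axis is logarithmic and the others start at 0. Cidec spans 186 to 40463, and the Fitm2 libraries of neighbouring groups do not overlap.

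CIDEA behaved differently from CIDEC in DFAT cells. Its normalized counts were 9.30, 16.8 and 19.3 with vehicle, 18.5, 26.5 and 27.5 with dicoumarol, and 38.1, 34.7 and 28.4 with magnolol. With the combination they were 60.8, 51.0 and 56.1, and with rosiglitazone 28.2, 33.4 and 33.6. The combination libraries were the highest 3 of all 15, and the rosiglitazone libraries overlapped those with magnolol. CIDEA rose by 1.15 ± 0.27 with magnolol (adjusted p = 0.0166), by 1.87 ± 0.27 with the combination (adjusted p = 0.000123) and by 1.07 ± 0.27 with rosiglitazone (adjusted p = 0.0127). The dicoumarol difference of 0.68 ± 0.27 was not called (adjusted p = 0.323). The magnolol call was lost without vehicle replicate 1 (adjusted p = 0.0965), without magnolol replicate 1 (adjusted p = 0.0849) and without magnolol replicate 2 (adjusted p = 0.0580), and the rosiglitazone call without vehicle replicate 1 (adjusted p = 0.0743). Both were lost when only the compared groups were fitted (adjusted p = 0.0630 and 0.105). CIDEA was higher with the combination than with dicoumarol by 1.19 (adjusted p = 0.0203), a call lost when any of 4 libraries was left out (dicoumarol replicates 1 and 2, combination replicates 1 and 3, adjusted p up to 0.137). That call was also lost without a filter on low values (adjusted p = 0.0583). Rosiglitazone lay below the combination by 0.80 on the log2 scale, a difference just past the threshold (adjusted p = 0.0470) that was not called when any 1 of the 6 libraries was left out (adjusted p up to 0.134). Nor was this difference called with a pseudocount of 0.5 (adjusted p = 0.0502) or without a filter (0.0894). Quantile normalization (0.0724) and fitting only these 2 groups (0.0558) lost the call as well. Estimated reads for CIDEA ran from 11 to 62 per library, so these values carry more counting error than those of the other DFAT members tested.

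In 3T3-L1, Cidea was at 0 to 2 reads in every library and at 0 in all 3 combination libraries. No fold was computed, since every group lay under 3 reads per library. Of the brown fat markers, Ucp1 stayed under a mean of 10 in 3T3-L1, and the DFAT marker sum without UCP1 was 446 to 489 with vehicle, 224 to 271 with the combination and 522 to 632 with rosiglitazone. With dicoumarol it was 238 to 320 and with magnolol 253 to 358, so the group with the highest CIDEA had the lowest range. The summed level of 5 muscle markers in DFAT (MYOD1, MYOG and CKM under a mean of 10) was 131 to 152 with vehicle, 185 to 208 with dicoumarol, 175 to 264 with magnolol, 257 to 311 with the combination and 145 to 234 with rosiglitazone, and was highest in the group with the highest CIDEA, though it overlapped magnolol. The part of either list in the CIDEA values was not tested.

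**Figure D2:**
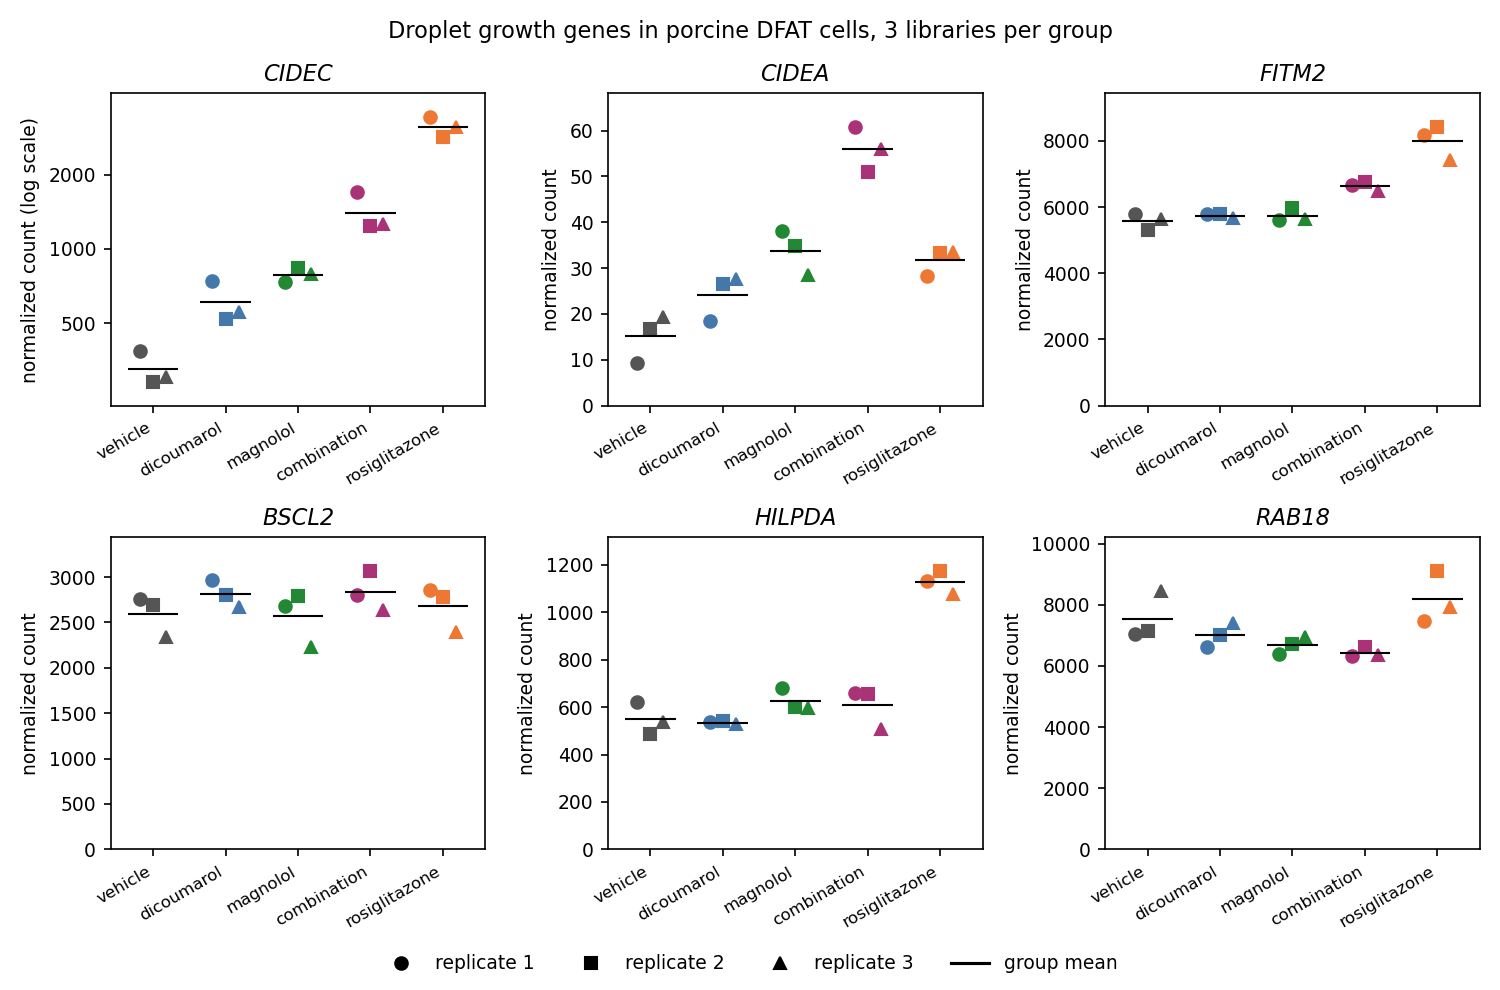
Normalized counts of 6 members in each DFAT library by group, with the replicate number as marker shape and the group mean as a line; the CIDEC axis is logarithmic and the others start at 0. CIDEC is highest with rosiglitazone at 2838 to 3407, CIDEA is highest with the combination at 51.0 to 60.8, and HILPDA stands apart only with rosiglitazone.

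Fitm2, the budding protein of most tissues, rose through the groups of 3T3-L1 in the same order as Cidec with less spread. Its normalized counts were 1874, 1772 and 1712 with vehicle and 2847, 2159 and 2884 with dicoumarol. They were 3967, 3218 and 3662 with magnolol, 5220, 4050 and 4402 with the combination, and 6590, 7769 and 6876 with rosiglitazone. No 2 neighbouring groups in this order overlapped. Fitm2 rose by 1.01 ± 0.12 with magnolol (adjusted p = 0.00123), 1.34 ± 0.12 with the combination (adjusted p = 6.5e-05) and 1.98 ± 0.12 with rosiglitazone (adjusted p = 6.4e-08). The dicoumarol difference of 0.55 ± 0.12 was called only with the replicate block (adjusted p = 0.907 without it and 0.0250 with it). The combination exceeded dicoumarol by 0.80 (adjusted p = 0.0313, and 0.000360 with the block). Without the block that call was lost when any of 5 libraries was left out (dicoumarol replicates 1, 2 and 3 and combination replicates 1 and 3, adjusted p up to 0.369). Rosiglitazone exceeded the combination by 0.64 ± 0.12 (adjusted p = 0.00363). The combination was higher than magnolol by 0.33 ± 0.12, which was not called in either fit (adjusted p = 1.00 and 0.570). Fitm2 overlaps the antisense gene 2310001K24Rik, whose mean was 7.17 ± 1.93 (SD, n = 3) with vehicle and 29.7 ± 1.51 with rosiglitazone. Estimated reads of Fitm2 were whole numbers in 1 of 15 libraries, and whether counting used strand is not given in the sources used here, so the Fitm2 value carries that limit.

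FITM2 in DFAT differed less between groups, from a higher starting count. The vehicle libraries were at 5794, 5298 and 5641, those with dicoumarol at 5781, 5789 and 5660, and those with magnolol at 5606, 5963 and 5639. These 3 groups overlapped. The combination libraries, at 6681, 6745 and 6495, and the rosiglitazone libraries, at 8184, 8423 and 7420, lay above all of them. FITM2 rose by 0.25 ± 0.06 with the combination (adjusted p = 0.00742) and 0.52 ± 0.06 with rosiglitazone (adjusted p = 5.1e-06). The differences with dicoumarol and with magnolol were each 0.04 ± 0.06 (adjusted p = 0.880 and 0.776). Rosiglitazone exceeded the combination by 0.27 ± 0.06 (adjusted p = 0.00315). The combination was 0.21 ± 0.06 above magnolol, which was called only with the replicate block (adjusted p = 0.144 without it and 0.0386 with it). Same-numbered libraries of these 2 groups deviated together. The block was fitted over all 15 libraries, however, where this held in only 16 of 30 pairs. The FITM2 interaction of 0.17 ± 0.08 was not called (unadjusted p = 0.0512, adjusted p = 1.00). FITM1, the muscle form, ranged from 3.42 to 16.6 over the 15 DFAT libraries, and each treated group overlapped vehicle. It was under the filter and was not tested.

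Bscl2, which encodes seipin, was called in 1 comparison with vehicle, rosiglitazone in 3T3-L1. Its normalized counts there were 241, 123.2 and 157, against 80.5, 86.7 and 107 with vehicle, a rise of 0.87 ± 0.28 (adjusted p = 0.0203). The call was lost without vehicle replicate 1 (adjusted p = 0.0656), without vehicle replicate 2 (adjusted p = 0.0587) and without rosiglitazone replicate 1 (adjusted p = 0.117). With the replicate block and no library left out, the rise was called (adjusted p = 0.0047). Dicoumarol, magnolol and combination libraries ranged from 79.9 to 176, and each of these groups overlapped vehicle. The mouse Bscl2 locus overlaps Gng3 on the other strand and Gm50139 on the same strand. Its estimated reads were whole numbers in only 1 of 15 libraries, and the mouse value is uncertain. In DFAT the group means of BSCL2 lay between 2566 (magnolol) and 2835 (combination), every treated group overlapped vehicle, and the largest difference from vehicle was 0.13 ± 0.09 (adjusted p = 0.436). BSCL2 there overlaps an unnamed gene on the other strand and had whole estimated reads in 0 of 15 libraries, so its value carries the same limit.

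Hilpda, the ATGL inhibitor, was higher with rosiglitazone in both systems and was called in no other comparison with vehicle. In DFAT its normalized counts were 622, 487 and 539 with vehicle and 1133, 1176 and 1077 with rosiglitazone. The dicoumarol, magnolol and combination libraries, at 508 to 679, overlapped vehicle in each group. HILPDA rose by 1.04 ± 0.10 with rosiglitazone (adjusted p = 2.0e-06) and exceeded the combination by 0.90 ± 0.10 (adjusted p = 1.2e-05). In 3T3-L1 the counts were 212, 186 and 188 with vehicle and 289, 288 and 228 with rosiglitazone, a rise of 0.45 ± 0.16 (adjusted p = 0.0315). That call was lost without vehicle replicate 2 (adjusted p = 0.0904) or 3 (adjusted p = 0.0770), without rosiglitazone replicate 1 (adjusted p = 0.106) or 2 (adjusted p = 0.0863), and when only these 2 groups were fitted (adjusted p = 0.0543). With the replicate block and no library left out, the rise was called (adjusted p = 0.0104). The magnolol libraries, at 177, 178 and 157, lay below all vehicle libraries, but the difference of -0.19 ± 0.16 was not called (adjusted p = 0.791). Rosiglitazone exceeded the combination by 0.40 ± 0.16, which was called only with the replicate block (adjusted p = 0.0868 without it and 0.0313 with it).

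Rab18 was the member with a called fall against vehicle. In 3T3-L1 its normalized counts were 5005, 5724 and 4395 with vehicle and 3395, 4350 and 4301 with rosiglitazone, and the log2 value fell by 0.33 ± 0.11 (adjusted p = 0.0203). The 2 groups did not overlap, with 4350 below 4395. The fall was not called without vehicle replicate 2 (adjusted p = 0.106), without rosiglitazone replicate 1 (adjusted p = 0.112) or when only these 2 groups were fitted (adjusted p = 0.104). With the replicate block and no library left out, it was called (adjusted p = 0.0083). In DFAT the RAB18 counts were 7040, 7146 and 8451 with vehicle, 6327, 6624 and 6356 with the combination, and 7469, 9114 and 7936 with rosiglitazone. Neither difference from vehicle was called, at -0.22 ± 0.08 with the combination (adjusted p = 0.0827) and 0.12 ± 0.08 with rosiglitazone (adjusted p = 0.456). Rosiglitazone exceeded the combination by 0.34 ± 0.08 (adjusted p = 0.00594).

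**Figure D3:**
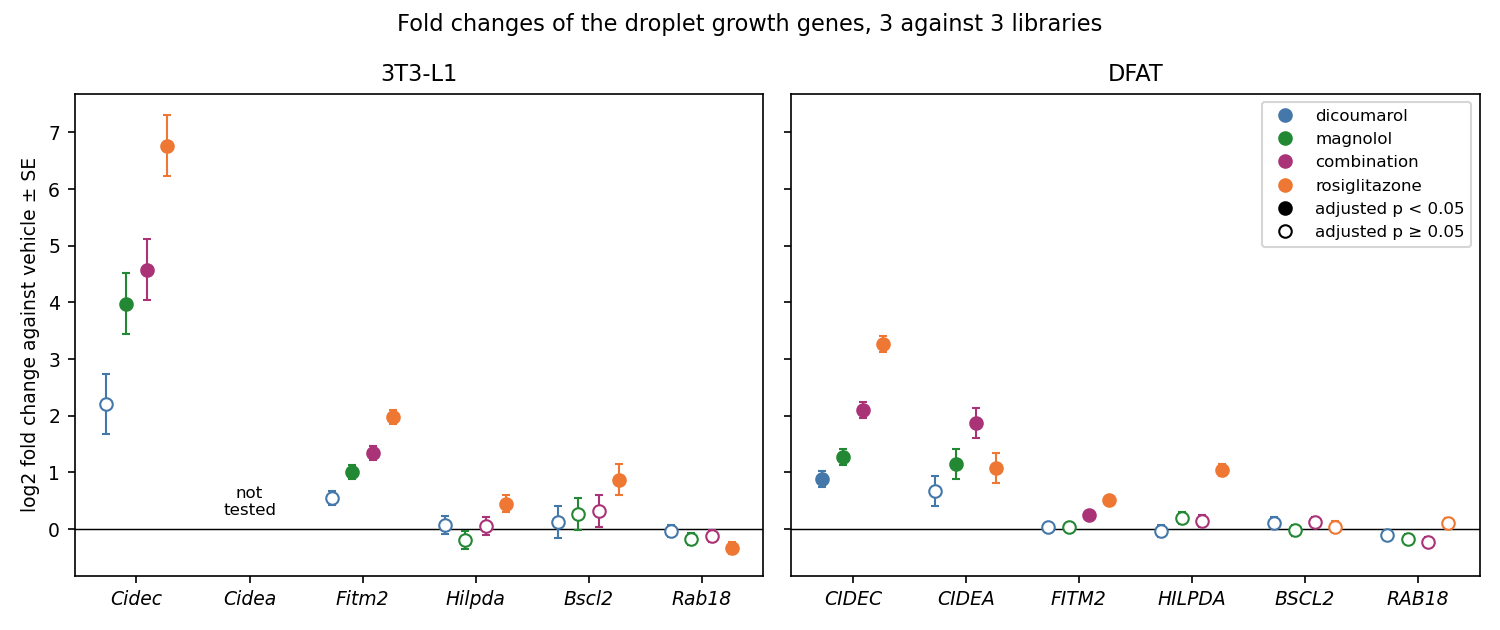
Log2 fold changes against vehicle with their standard errors for 6 members in 3T3-L1 (left) and DFAT (right), 3 against 3 libraries, filled where the adjusted p was under 0.05. Cidec reaches 6.77 with rosiglitazone in 3T3-L1 and 3.26 in DFAT, and Rab18 is the member with a called fall, at -0.33.

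Counting over the members puts these calls beside those of all genes. The rise of Cidec and Fitm2 was known when the members were chosen. In 3T3-L1 they were the 2 members called with magnolol and with the combination. The counts are therefore no test of the members against all genes. In 3T3-L1, 0 of 5 tested members were called with dicoumarol, where 0% of all tested genes were called. The smallest adjusted p of any gene there was 0.907, and 393 genes had an unadjusted p under 0.05. With magnolol 2 of 5 members were called (1.23% of all genes), with the combination 2 of 5 (5.22%) and with rosiglitazone 5 of 5 (40.1%). With the replicate block dicoumarol gave 2 of 5 (0.502%). In DFAT, dicoumarol gave 1 of 6 (1.94%), magnolol 2 of 6 (4.22%), the combination 3 of 6 (10.2%) and rosiglitazone 4 of 6 (10.8%). The rosiglitazone count in 3T3-L1 was 2 of 5 without vehicle replicate 2 and also without rosiglitazone replicate 1. Shares of all genes were not taken for these 2 settings. With the replicate block and no library left out, the count was 5 of 5 (49.8%).

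Between treatments in 3T3-L1, magnolol against dicoumarol gave 0 of 5 members (0% of all genes, 693 with an unadjusted p under 0.05) and 1 of 5 with the block (0.502%). The combination against dicoumarol gave 1 of 5 (0.0254%), and 2 of 5 with the block (3.62%). The combination against magnolol gave 0 of 5 (0%, with 336 genes at an unadjusted p under 0.05). Rosiglitazone against the combination gave 2 of 5 (18.3%), and 3 of 5 with the block (33.3%). The interaction gave 0 of 5 (0%, with 78 genes at an unadjusted p under 0.05). In DFAT, magnolol against dicoumarol gave 0 of 6 (1.57%) and the combination against dicoumarol 2 of 6 (2.35%). The combination against magnolol gave 1 of 6 (0.621%), and 2 of 6 with the block (1.96%). Rosiglitazone against the combination gave 5 of 6 (17%), and the interaction 0 of 6 (0.081%). Comparisons with a common group share its libraries, so their calls are not independent of each other.

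Levels of different genes can be compared only per length. Divided by the exon length of GENCODE vM21, the vehicle level was 736 ± 97.1 normalized counts per kb (SD, n = 3) for Rab18, 450 ± 20.6 for Fitm2, 216 ± 193 for Cidec, 177 ± 13.1 for Hilpda and 15.5 ± 2.35 for Bscl2. Cidec thus did not stand above Fitm2, Rab18 or, given its spread, Hilpda in vehicle cells. With rosiglitazone the Cidec level was 18692 ± 4008 per kb, Fitm2 1784 ± 155, Rab18 586 ± 78.5, Hilpda 244 ± 31.6 and Bscl2 29.5 ± 10.2. Cidec was then the highest of the members per length in every rosiglitazone library.

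Over the 15 libraries of 3T3-L1, log2 values of Cidec and Fitm2 had a Pearson r of 0.97, and 0.611 after the group means were taken out. In DFAT the CIDEC and FITM2 values had r = 0.921, and 0.27 within groups. FITM2 and HILPDA had r = 0.89 in DFAT (0.517 within groups), while Fitm2 and Hilpda in 3T3-L1 had 0.422 (-0.502 within groups). CIDEA and CIDEC in DFAT had 0.592, and -0.599 within groups. These values describe libraries that share treatment, depth and scaling.

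The genes whose log2 values were most like a member over the 15 libraries, among genes with a mean of at least 100, were other fat cell genes for Cidec. They were Acsl1 (fatty acid activation, r = 0.991), Retn (the adipokine resistin, 0.990) and Plin1 (the droplet coat protein perilipin, 0.989) among 11573 candidates. For CIDEC in DFAT, among 9927, they were TRARG1 (a regulator of glucose transporter traffic, 0.986), ACAA1 (a peroxisomal thiolase, 0.983) and SCD (a fatty acid desaturase, 0.983). Fitm2 was most like Abhd15 (0.994), Atp5b and Cluh (both 0.991), and FITM2 like DHRS4 (0.993), TMEM135 (0.974) and PLIN2 (0.966). HILPDA was most like UNC5B (0.971), KLHL29 and CAMK1, and Hilpda like Polr2h (0.932), Rbm8a2 and Btf3. CIDEA was most like MYL6 (0.921), FAM241A and PTCHD1. Rab18 was most like Adh7 (0.953), Msantd4 and Vamp4, and RAB18 like NAA50 (0.988), EIF1AX and UBE2K. For seipin the genes were Nxf1 (0.904), Lgals4 and Mus81 in 3T3-L1, and SHKBP1 (0.925), SDHA and ACADVL in DFAT.

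Of 48 other lipid droplet genes, written down by role with the members left out, 44 were tested in 3T3-L1 and 43 in DFAT. In 3T3-L1 the test called 0 of them with dicoumarol, and with magnolol 14 higher and 0 lower. With the replicate block 11 were called higher with dicoumarol, where 0.502% of all tested genes were called in either direction. With the combination 20 were higher and 0 lower, and rosiglitazone gave 22 higher and 9 lower. Of all 15723 tested genes, rosiglitazone gave 3190 higher and 3122 lower without the block, the combination 607 and 214, magnolol 169 and 24, and dicoumarol 0 and 0. Median log2 fold changes of the droplet genes in the 4 comparisons with vehicle were 0.07, 0.17, 0.15 and 0.36, with the median of all genes within 0.01 of 0. In DFAT dicoumarol gave 3 higher and 0 lower, magnolol 11 and 1, the combination 13 and 1, and rosiglitazone 18 and 0. Of all 14819 tested genes these comparisons gave 135 higher and 153 lower, 438 and 188, 906 and 602, and 860 and 744. Medians of the droplet genes were 0.01, 0.02, 0.06 and 0.12. Of the 11 coat and lipolysis genes tested in DFAT, 3, 6, 7 and 8 were called higher in the same order. Of 10 Rab and degradation genes tested in DFAT, 0 were called against vehicle in any of the 4 comparisons, and in 3T3-L1 1 was higher and 3 lower with rosiglitazone.

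Plin1, which coats the droplet surface, rose by 3.06 ± 0.38 with magnolol (adjusted p = 0.00142), by 3.45 ± 0.38 with the combination and by 4.74 ± 0.38 with rosiglitazone in 3T3-L1. Its mean went from 201 ± 97.0 (SD, n = 3) with vehicle to 5049 ± 879 with rosiglitazone. The other genes among the 3 largest called rises of a comparison in 3T3-L1 were Pnpla3 (a lipase-like protein of droplets, 3.39 with magnolol and 3.23 with the combination), Ces1d (a carboxylesterase, 2.73 with magnolol), Adig (adipogenin, 3.17 with the combination and 4.38 with rosiglitazone) and G0s2 (an ATGL inhibitor, 5.01 with rosiglitazone). Pnpla3 started from a mean of 1.48 ± 2.57, so its fold rests on few reads. The 3 largest falls with rosiglitazone were Plin3 (-0.58), Acsl4 (-0.58) and Mospd2 (-0.49). In DFAT PLIN1 rose by 2.15 (dicoumarol), 3.90 (magnolol), 4.79 (combination) and 5.05 (rosiglitazone), each ± 0.10. PLIN4, another coat protein, rose by 2.42, 3.48, 4.97 and 4.74. The next largest rises were LIPE (hormone-sensitive lipase, 1.08) with dicoumarol, PLIN5 with magnolol (2.40) and with the combination (2.90), and CLSTN3 (3.31) with rosiglitazone. PLIN5 started from a mean of 1.64 ± 1.54, so its fold also rests on few reads. MOSPD2 fell by 0.27 with magnolol and by 0.33 with the combination.

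**Figure D4:**
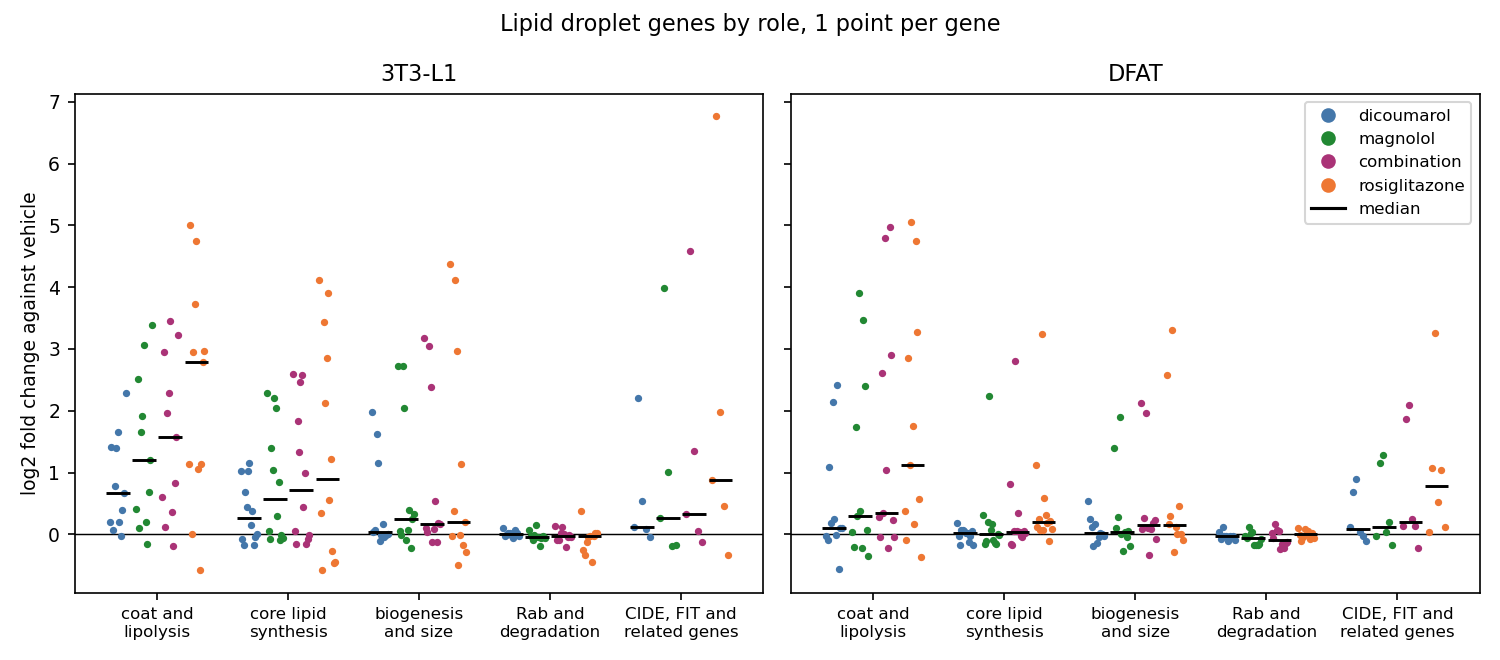
Log2 fold changes against vehicle of the tested lipid droplet genes in 4 role lists and of the tested members (right column of each panel), 1 point per gene and a line at the median. The median of the Rab and degradation genes lies near 0 in every comparison. The highest value is Cidec with rosiglitazone in 3T3-L1 (6.77) and PLIN1 with rosiglitazone in DFAT (5.05), where CIDEC reaches 3.26.

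Adipocyte markers moved with the groups in which Cidec was high, but the fibroblast markers in DFAT did not follow CIDEC. The adipocyte sum in 3T3-L1 was 61134 to 93866 with dicoumarol, 84557 to 126588 with magnolol and 110582 to 170720 with the combination, so it rose in the same order as Cidec and Fitm2. The 10 fibroblast and preadipocyte markers summed to 476806 to 519346 with vehicle and to 286423 to 364771 with rosiglitazone. In DFAT the adipocyte sum was 22954 to 24374 with dicoumarol, 35473 to 43843 with magnolol and 55711 to 63010 with the combination. The DFAT fibroblast sum (9 of 10 markers listed, DLK1 under a mean of 10) was 2709275 to 2849899 with vehicle, 3546842 to 3653118 with dicoumarol, 3984218 to 4532404 with magnolol, 3951725 to 4585214 with the combination and 2203501 to 2331556 with rosiglitazone. The part of either marker list in the differences of the 7 genes was not tested.

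In the coordinates of the mouse table, Cidec (ENSMUSG00000030278) spans chr6:113401595-113412721 on the minus strand, Fitm2 (ENSMUSG00000048486) chr2:163308299-163314549 on the minus strand, Hilpda (ENSMUSG00000043421) chr6:29272487-29275445 on the plus strand and Bscl2 (ENSMUSG00000071657) chr19:8814831-8826047 on the plus strand. The submitters' processing notes name GRCm38, but only 2.18% of the genes matched to a GRCm38 annotation had the same start, so the build of these coordinates is not given and differs from that of the RefSeq windows. In the pig table, whose build is not given in the sources used here, CIDEC (ENSSSCG00000011557) spans chr13:66141839-66149703 on the minus strand, FITM2 (ENSSSCG00000037912) chr17:46739973-46745982 on the minus strand and CIDEA (ENSSSCG00000060225) chr6:97253074-97267405 on the minus strand.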

How the data were processed

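Poly(A) RNA libraries with dUTP strand marking were made from the 30 samples, per the labels' protocols. Each species has 1 deposited table of signal values, which are the authors' DESeq2-normalized gene counts (counts over a size factor per library), per the labels. The submitters' processing notes name bcl2fastq 2.19.1.403, STAR, DESeq2 and the build GRCm38; annotation, counter and pig build are not stated in the labels or headers. Within a tolerance of 0.02 reads, 81.6% to 82.7% (3T3-L1) and 89.8% to 91.0% (DFAT) of low values were whole reads, so no count test was run.

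Each table was fitted with limma 3.58.1 (R 4.3.3) on log2(value + 1) over its 15 libraries, with moderated variances and a trend, a minimum mean of 10, two-sided tests and Benjamini-Hochberg adjustment over all tested genes at 0.05. The fit without the block was tested on simulated data with changes in the magnolol group only and no shared replicate effect. Those data cannot speak to the replicate pairing in 3T3-L1. Members and lists were chosen with earlier results of these data known, and the rise of Cidec and Fitm2 was among those results. Named genes were all members, the 3 genes most like each, and the 3 largest rises and falls called in the droplet list in each comparison with vehicle.

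Same-numbered 3T3-L1 libraries deviated together in 30 of 30 pairs (lowest r 0.106, threshold 0.1), so the replicate number was used as a block beside the fit without it. In DFAT this held between the magnolol, combination and rosiglitazone groups (r 0.105 to 0.345), and over all groups in 16 of 30 pairs. Python 3.11.15, pandas 2.3.3 and matplotlib 3.10.9 made the tables and plots. The alternatives were another pseudocount (0.5 or 5), no filter, no variance trend, only the compared groups, quantile normalization, the replicate block and leaving out each library.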

Additional observations from a re-analysis of the deposited data

How the results depend on the processing

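Of 715 repeats of 55 member fold changes under the alternatives, 657 kept their direction and their side of the threshold, 45 lost a call, 4 gained one and 9 changed sign. The 55 were every tested member against vehicle and, between treatments, only differences called in the fit without the block. Those between treatments could lose a call but not gain one, so calls gained there with the block are not among the 4. Calls for Cidec, Fitm2, CIDEC and FITM2 against vehicle were kept under every alternative run. Pseudocounts of 0.5 and 5 changed no count of called members by over 1.5 times, and neither did quantile normalization. A pseudocount of 0.5 and quantile normalization each lost the DFAT call of CIDEA between rosiglitazone and the combination, however. With the replicate block, which follows the pairing in 3T3-L1, the number of called members was 2 with dicoumarol against vehicle (0.502% of all genes). It was 1 for magnolol against dicoumarol (0.502%) and 2 for the combination against dicoumarol (3.62%). In DFAT the block gave 1 for magnolol against dicoumarol (CIDEC, 4.43% of all genes) and 2 for the combination against magnolol (1.96%). The block also called the fall of RAB18 with the combination (adjusted p = 0.0212), as did quantile normalization (0.0465). With only the compared groups fitted the numbers were 3 (3T3-L1 rosiglitazone against vehicle), 0 (3T3-L1 combination against dicoumarol) and 1 (DFAT magnolol against vehicle). Without a variance trend they were 0 for the 3T3-L1 combination against dicoumarol and 0 for the DFAT combination against magnolol. Without a filter they were 1 for the DFAT combination against dicoumarol and 0 against magnolol. Shares of all genes were not taken for the other alternatives or with 1 library left out, so those counts stand without them. The cause of these changes was not tested.

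Leaving out 1 library gave 2 to 5 called members for 3T3-L1 rosiglitazone against vehicle, 0 to 1 for the combination against dicoumarol and 1 to 2 for rosiglitazone against the combination. In DFAT it gave 1 to 2 for magnolol against vehicle, 1 to 2 for the combination against dicoumarol and 0 to 1 for the combination against magnolol. The sign changes were all in differences that were never called: Rab18 with dicoumarol (-0.130 to 0.0601), Bscl2 with dicoumarol (-0.0517 to 0.271) and Hilpda with the combination (-0.120 to 0.197) in 3T3-L1. In DFAT they were HILPDA with dicoumarol (-0.114 to 0.0634), BSCL2 with magnolol (-0.0935 to 0.0779) and BSCL2 with rosiglitazone (-0.0293 to 0.122, log2 fold changes with 1 library left out). Cidea in 3T3-L1 and FITM1 in DFAT had means under the filter on low values, so no fold change was computed for them. The part of depth in their low values was not tested.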
